A study of Arabidopsis thaliana with 18 samples.

Results

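Suberin synthesis was followed through 10 genes of Arabidopsis thaliana, named by their locus identifiers and taken from the 37037 entries of the deposited count table. They were chosen for their known roles, with earlier results of these data known. They cover fatty acid hydroxylation (CYP86A1, AT5G58860, and CYP86B1, AT5G23190), elongation (KCS2, AT1G04220), reduction to alcohols (FAR1, AT5G22500; FAR4, AT3G44540; FAR5, AT3G44550) and transfer to glycerol (GPAT5, AT3G11430). The other 3 are the feruloyl transferase ASFT (AT5G41040), the transporter ABCG6 (AT5G13580) and the transcription factor MYB41 (AT4G28110). All 10 had reads in every library, the lowest count being 156, and all 10 were among the 19982 genes tested.

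Suberin is a polyester of fatty acid derivatives, glycerol and ferulic acid that is laid down on the inner face of the cell wall. In roots it coats endodermal cells after the Casparian strip has formed and limits the passage of water and solutes across their plasma membrane. Its amount is known to change with mineral nutrition, and abscisic acid and ethylene are known to act on it in opposite directions.

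The libraries came from poly(A) RNA of roots of wild-type Columbia (Col-0) seedlings grown for 8 days in Murashige and Skoog medium with 625 or 5 µM phosphate. On each medium some roots stayed without zeatin and others received an isomer, trans-zeatin or cis-zeatin, at 5 µM over 8 h, which gave 6 groups of 3 libraries. The medium with 5 µM phosphate, called low phosphate below, is also labelled as lacking phosphate. The zeatins are cytokinins that differ in the orientation of the hydroxyl group about the side-chain double bond. In such bulk samples fewer cells of a type and less RNA per cell cannot be told apart. The labels do not say whether replicates came from separate cultures, and p-values measure only the spread between these libraries.

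Libraries held 20839562 to 21871669 counted reads of 50 bases, 88.7 to 91.0% of their clean reads. In the deposited quality report the number of reads dropped because of undetermined base calls fell into 3 ranges. It was 81544 to 85178 in the 6 full-phosphate libraries without zeatin or with trans-zeatin. It was 22738 to 25354 in the full-phosphate cis-zeatin libraries, the untreated low-phosphate libraries and low-phosphate trans-zeatin replicate 1, and 40794 to 58614 in the other 5. The comparisons of starvation, of cis-zeatin in either medium and of the isomers in full phosphate lie wholly across these ranges, and the interactions contain such comparisons. Group and range cannot be told apart there, except that low-phosphate trans-zeatin replicate 1 links the ranges of the low-phosphate groups in a fit with range as a term. Trans-zeatin in full phosphate lies within 1 range.

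Scatter between replicates touched all 10 genes at once in low phosphate. Among untreated low-phosphate roots, replicate 1 was above its group mean for 9 of the 10 genes, by 0.24 on average on the log2 scale, and replicate 2 was below it for 10, with a mean deviation of -0.22. Under trans-zeatin in low phosphate, replicate 1 was higher by 0.33 and replicate 2 had a mean deviation of -0.40, again below for 10 of 10. In the full-phosphate groups no library deviated by more than 0.08. Counts that rest on these libraries are also given without some of them, and as ranges over leaving out each library in turn.

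Promoter windows are shown for 4 genes: MYB41, CYP86B1 and ASFT, which held the motifs shown in capitals, and FAR5, which had the largest fold change and held the cytokinin regulator core AGATT most often. Each runs from 250 bases before the annotated gene start to 50 bases after it, read 5′ to 3′ on the strand of the gene from the RefSeq genome (TAIR10.1) by locus identifier. The windows are chr4:13969476-13969775 (minus strand), chr5:7805919-7806218 (minus strand), chr5:16431054-16431353 (plus strand) and chr3:16137326-16137625 (plus strand). Capitals mark P1BS (GNATATNC), the site bound by the phosphate starvation regulator PHR1, the abscisic acid response element (ACGTGNC) and the elements AC-I (ACCTACC), AC-II (ACCAACC) and AC-III (ACCTAAC) of phenylpropanoid genes, searched on both strands.
MYB41: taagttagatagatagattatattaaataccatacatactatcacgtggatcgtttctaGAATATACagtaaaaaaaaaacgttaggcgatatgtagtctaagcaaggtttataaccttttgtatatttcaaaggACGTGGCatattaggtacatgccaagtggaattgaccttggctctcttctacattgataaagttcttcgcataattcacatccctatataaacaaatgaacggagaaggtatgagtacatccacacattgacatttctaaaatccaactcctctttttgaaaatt
CYP86B1: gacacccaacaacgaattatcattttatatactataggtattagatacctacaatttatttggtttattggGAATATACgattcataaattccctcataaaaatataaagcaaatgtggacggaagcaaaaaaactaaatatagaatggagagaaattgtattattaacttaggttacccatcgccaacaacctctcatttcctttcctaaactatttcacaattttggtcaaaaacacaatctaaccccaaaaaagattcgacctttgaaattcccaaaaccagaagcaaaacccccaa
ASFT: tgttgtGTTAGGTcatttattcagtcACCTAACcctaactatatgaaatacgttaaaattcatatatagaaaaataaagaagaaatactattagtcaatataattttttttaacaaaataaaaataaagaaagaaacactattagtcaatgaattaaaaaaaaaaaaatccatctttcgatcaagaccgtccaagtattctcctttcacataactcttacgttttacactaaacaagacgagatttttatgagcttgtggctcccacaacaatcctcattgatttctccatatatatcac
FAR5: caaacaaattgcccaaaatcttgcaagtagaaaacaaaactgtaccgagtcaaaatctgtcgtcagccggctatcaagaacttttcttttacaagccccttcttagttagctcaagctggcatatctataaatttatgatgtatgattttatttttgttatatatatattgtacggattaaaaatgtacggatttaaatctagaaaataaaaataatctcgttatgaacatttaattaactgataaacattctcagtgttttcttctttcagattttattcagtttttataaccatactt
MYB41 held a P1BS match from position -191 and an abscisic acid response element from -115, CYP86B1 a P1BS match from -179, and ASFT AC elements from -244 and -224, counted from the gene start; no marked match overlaps another. The other 7 windows, that of FAR5 included, held none of the motifs in capitals. P1BS stood in 2 of the 10 windows and in 6.25% of 27438 promoters of protein-coding genes. The abscisic acid element stood in 1 of the 10 and in 10.3% of the promoters. AC elements stood in 1 of the 10 and in 7.29% of the promoters. AGATT, the short core bound by type-B cytokinin response regulators, was also searched on both strands and is left in lower case. It stood in 6 of the 10 windows and in 69.7% of the promoters. FAR5 held it 5 times, CYP86B1 2 times, and CYP86A1, GPAT5, ASFT and MYB41 1 time each. A match describes the letters only and is no measure of binding.

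Expression levels spanned more than an order of magnitude. Levels between genes were compared as CPM (counts scaled to library size) per kilobase of annotated exon in untreated full-phosphate roots (SD, n = 3). ASFT was highest at 152 ± 4.94, followed by CYP86A1 at 111 ± 8.39 and ABCG6 at 66.4 ± 3.03. CYP86B1 followed at 43.0 ± 2.67, FAR5 at 33.5 ± 1.99, GPAT5 at 30.2 ± 1.92 and FAR4 at 24.8 ± 0.254, of which FAR5 and GPAT5 lie within their spread of each other. KCS2 (12.5 ± 0.449), the regulator MYB41 (8.57 ± 0.628) and FAR1 (5.70 ± 0.410) were lowest.

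**Figure D1:**
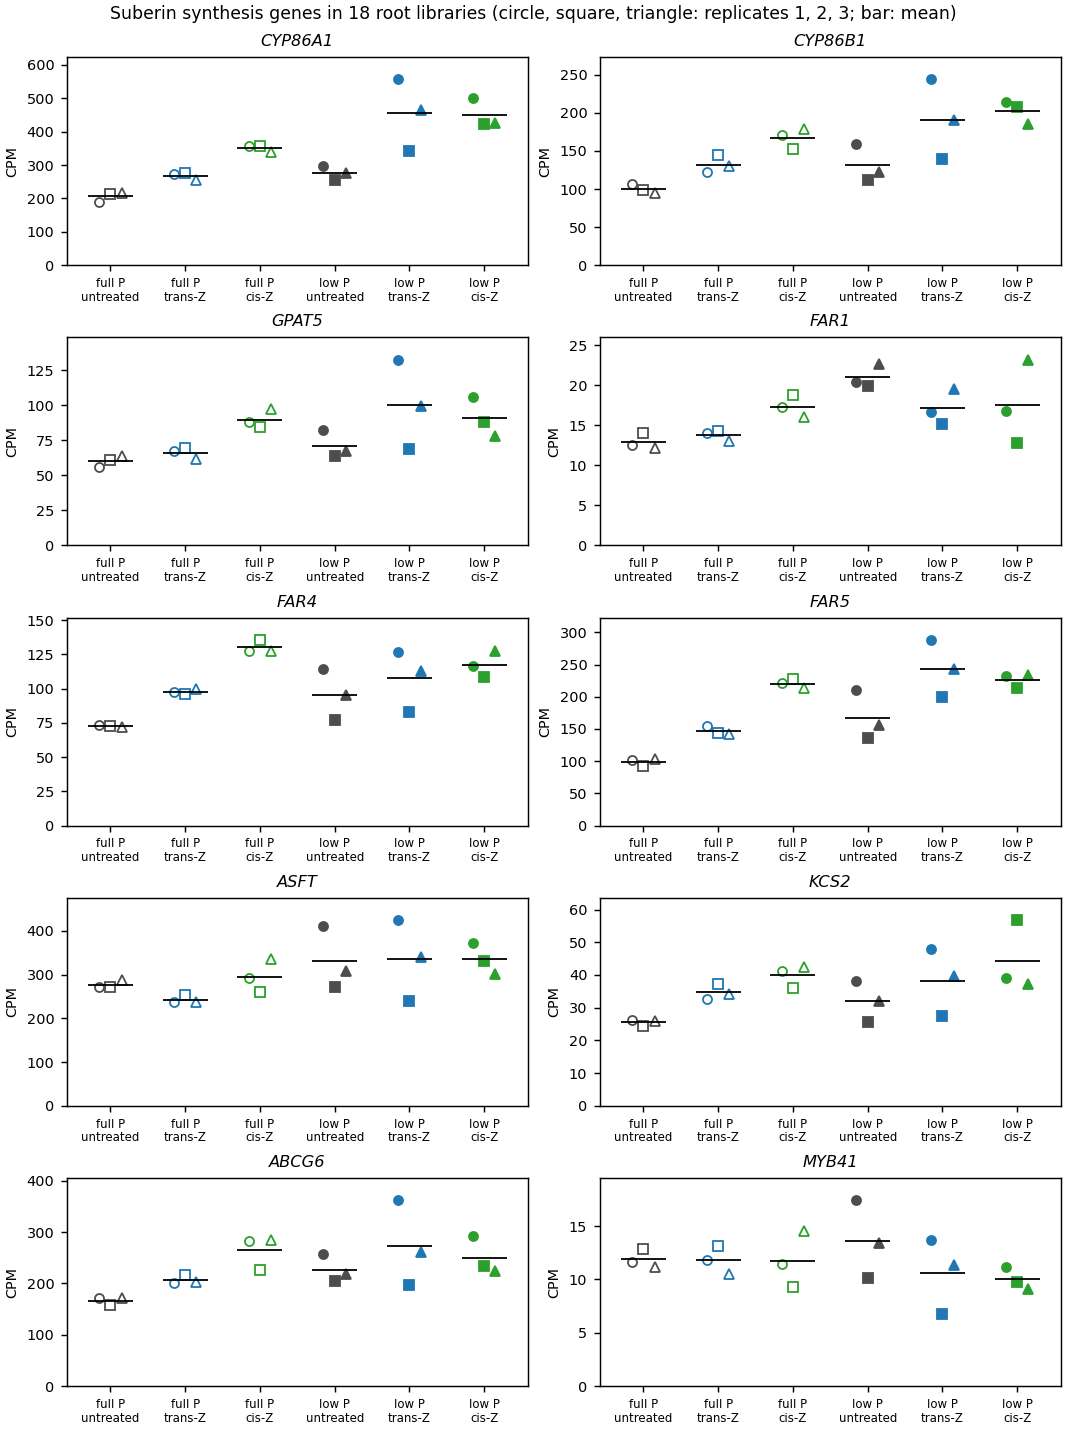
Level of each of the 10 genes in every library, in CPM on a linear axis from 0, by group; circles, squares and triangles are replicates 1, 2 and 3 and the bar is the group mean. Open symbols are full phosphate and filled symbols low phosphate. The 3 low-phosphate trans-zeatin libraries lie far apart for most genes (CYP86A1 from 341 to 557 CPM), the untreated full-phosphate ones close together.

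The hydroxylases responded in every comparison of a treated with an untreated group. CYP86A1, which hydroxylates long-chain fatty acids at their end carbon, stood at 188, 213 and 218 CPM in untreated full-phosphate roots and at 298, 254 and 277 CPM in untreated low-phosphate roots. In full phosphate it stood at 273, 277 and 256 CPM with trans-zeatin and at 357, 357 and 339 CPM with cis-zeatin. In low phosphate it stood at 557, 341 and 466 CPM with trans-zeatin and at 499.8, 424 and 426 CPM with cis-zeatin. The untreated full-phosphate libraries lay below all others, and the zeatin libraries above the untreated libraries of the same medium without overlap.

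CYP86B1, which makes the corresponding very-long-chain hydroxy acids, stood at 107, 99.1 and 94.4 CPM in untreated full-phosphate roots and at 159.7, 111 and 122 CPM in untreated low-phosphate roots. In full phosphate it stood at 122, 144 and 129.6 CPM with trans-zeatin and at 171, 153 and 178 CPM with cis-zeatin. In low phosphate it stood at 244, 139 and 190.3 CPM with trans-zeatin and at 214, 208 and 185 CPM with cis-zeatin. Its order of groups was that of CYP86A1 except that untreated low phosphate and full-phosphate trans-zeatin, which overlap, and both low-phosphate zeatin groups, which overlap as well, changed places.

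The 3 fatty acyl reductases, which make the primary alcohols of suberin, differed in the order of their groups. FAR5 stood at 101, 92.8 and 104 CPM in untreated full-phosphate roots, at 155, 143 and 142 CPM with trans-zeatin and at 221, 227 and 213 CPM with cis-zeatin. In low phosphate it stood at 211, 135 and 156 CPM untreated, at 288, 199.6 and 243 CPM with trans-zeatin and at 233, 213 and 234 CPM with cis-zeatin. The 3 full-phosphate groups formed steps without overlap, while in low phosphate the trans-zeatin libraries overlapped both other groups. FAR4, which lies 9545 bases from FAR5 on the same strand of chromosome 3, stood at 73.6, 72.7 and 72.2 CPM in untreated full-phosphate roots, at 97.5, 95.9 and 99.9 CPM with trans-zeatin and at 128, 136 and 127 CPM with cis-zeatin. In low phosphate FAR4 stood at 114, 76.9 and 95.03 CPM untreated, at 127, 83.2 and 113 CPM with trans-zeatin and at 117, 108 and 127 CPM with cis-zeatin, and these 3 groups overlapped.

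FAR1 was the exception among the reductases, since its highest group was untreated low phosphate. It stood at 12.6, 13.97 and 12.2 CPM in untreated full-phosphate roots and at 20.4, 19.9 and 22.7 CPM in untreated low-phosphate roots. It stood at 17.2, 18.7 and 16.0 CPM with cis-zeatin in full phosphate. With trans-zeatin it averaged 13.8 ± 0.648 CPM in full and 17.1 ± 2.24 CPM in low phosphate, and with cis-zeatin in low phosphate 17.5 ± 5.28 CPM (SD, n = 3). The low-phosphate cis-zeatin libraries of FAR1 spread from 12.7 to 23.2 CPM, wider than the difference between any pair of group means.

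GPAT5, the acyltransferase that joins suberin acids to glycerol, stood at 56.3, 61.1 and 63.9 CPM in untreated full-phosphate roots and at 88.0, 84.2 and 97.1 CPM with cis-zeatin. In low phosphate it stood at 82.3, 63.6 and 67.7 CPM untreated and at 133, 68.9 and 99.8 CPM with trans-zeatin. The first pair of groups did not overlap and the second did. KCS2, a ketoacyl-CoA synthase that lengthens fatty acids, rose from 25.6 ± 0.918 CPM in untreated full-phosphate roots to 34.7 ± 2.44 CPM with trans-zeatin and 39.9 ± 3.49 CPM with cis-zeatin (SD, n = 3). In low phosphate KCS2 averaged 31.9 ± 6.30 CPM untreated, 38.3 ± 10.3 CPM with trans-zeatin and 44.4 ± 10.8 CPM with cis-zeatin, where replicate 2 alone reached 56.8 CPM. ABCG6, a half-size transporter needed for root suberin, averaged 167 ± 7.60 CPM untreated, 207 ± 8.51 CPM with trans-zeatin and 264 ± 32.9 CPM with cis-zeatin in full phosphate. In low phosphate ABCG6 averaged 227 ± 27.4, 274 ± 82.8 and 249.6 ± 36.9 CPM in the same order, and these groups overlapped.

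ASFT and MYB41 were the only 2 of the 10 genes that passed the test in none of the 10 comparisons. ASFT, which esterifies ferulic acid to hydroxy acids, stood at 272, 271 and 287 CPM in untreated full-phosphate roots and at 237, 254 and 237 CPM with trans-zeatin. It stood at 291, 261 and 335 CPM with cis-zeatin and at 411, 272 and 309 CPM in untreated low-phosphate roots. Of the zeatin groups only trans-zeatin in full phosphate lay apart from the untreated libraries of its medium, below them. MYB41, a factor whose overexpression causes suberin-like deposits, ranged from 10.5 to 13.1 CPM in full-phosphate roots left untreated or given trans-zeatin. In low phosphate MYB41 stood at 17.4, 10.12 and 13.4 CPM untreated, at 13.7, 6.77 and 11.3 CPM with trans-zeatin and at 11.2, 9.80 and 9.13 CPM with cis-zeatin, so these groups overlapped.

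**Figure D2:**
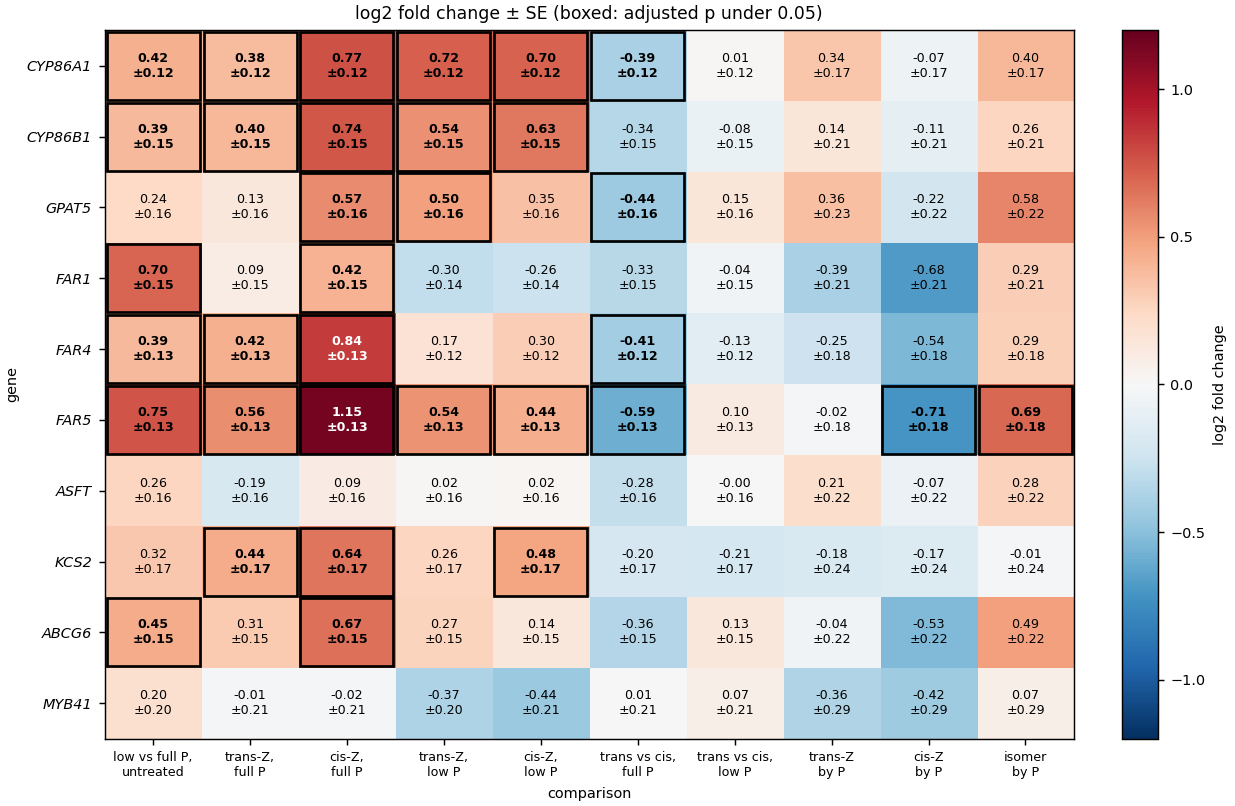
Log2 fold change ± SE of each gene (rows) in each of the 10 comparisons (columns), from red (higher) to blue (lower); boxes mark an adjusted p under 0.05. Cis-zeatin in full phosphate holds 8 boxes, the comparison of isomers in low phosphate none, and the rows of ASFT and MYB41 none.

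Phosphate starvation raised 6 of the 10 genes and lowered none, with a median log2 fold change of 0.39 over the 10. FAR5 rose by 0.75 ± 0.13 on the log2 scale (SE; adjusted p = 7.53e-05, edgeR's quasi-likelihood test with Benjamini-Hochberg adjustment over all genes tested, as for every adjusted p given). FAR1 rose by 0.70 ± 0.15 (adjusted p = 0.000576), ABCG6 by 0.45 ± 0.15 (adjusted p = 0.0223) and CYP86A1 by 0.42 ± 0.12 (adjusted p = 0.00772). FAR4 (0.39 ± 0.13, adjusted p = 0.0158) and CYP86B1 (0.39 ± 0.15, adjusted p = 0.0388) completed the set. These 6 genes were also those whose low-phosphate libraries all lay above the full-phosphate ones. The share of all genes whose groups lie apart in this way was not counted, here or in the comparisons below. Of all genes tested, 22.9% were called higher in this comparison and 21.8% lower, together 44.7%, and the median over all genes was 0.00. KCS2 (0.32 ± 0.17), ASFT (0.26 ± 0.16), GPAT5 (0.24 ± 0.16) and MYB41 (0.20 ± 0.20) did not pass the test. Without untreated low-phosphate replicate 1, only FAR5, FAR1 and CYP86A1 remained called, and without untreated full-phosphate replicate 2 the count was 4.

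Trans-zeatin in full phosphate raised 5 of the 10 genes and lowered none, against 24.2% of all genes called higher and 25.3% lower, together 49.4%. The median log2 fold change was 0.35 over the 10 and 0.00 over all genes. FAR5 rose by 0.56 ± 0.13 (adjusted p = 0.0011), KCS2 by 0.44 ± 0.17 (adjusted p = 0.0396) and FAR4 by 0.42 ± 0.13 (adjusted p = 0.00811). The hydroxylases CYP86B1 (0.40 ± 0.15, adjusted p = 0.0307) and CYP86A1 (0.38 ± 0.12, adjusted p = 0.0131) rose by similar amounts. ABCG6 was higher in all 3 libraries than in any untreated one but missed the threshold (0.31 ± 0.15, adjusted p = 0.0994), and ASFT was lower in all 3 and missed it too (-0.19 ± 0.16, adjusted p = 0.335). Leaving out 1 library of these groups gave 3 calls in 5 of 6 cases, namely without any of the untreated libraries or without trans-zeatin replicate 2 or 3.

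Cis-zeatin in full phosphate raised 8 of the 10 genes and lowered none, the largest number in any comparison, against 12.7% of all genes called higher and 13.5% lower, together 26.2%. The median log2 fold change was 0.65 over the 10 and -0.03 over all genes. FAR5 rose by 1.15 ± 0.13, a 2.22-fold change (adjusted p = 5.58e-07), FAR4 by 0.84 ± 0.13 (adjusted p = 2.46e-05), CYP86A1 by 0.77 ± 0.12 (adjusted p = 4.91e-05) and CYP86B1 by 0.74 ± 0.15 (adjusted p = 0.000599). ABCG6 (0.67 ± 0.15, adjusted p = 0.0022), KCS2 (0.64 ± 0.17, adjusted p = 0.0074), GPAT5 (0.57 ± 0.16, adjusted p = 0.00992) and FAR1 (0.42 ± 0.15, adjusted p = 0.0407) rose as well. For these 8 the cis-zeatin libraries lay above the untreated ones without overlap, while ASFT (0.09 ± 0.16) and MYB41 (-0.02 ± 0.21) overlapped them. The count stayed at 7 or 8 under every alternative tried. None of these separates treatment from the range of dropped reads, since the untreated and the cis-zeatin libraries lie in different ranges.

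The isomers were compared directly at the same dose and time; the 10 genes and the 2 media make 20 such differences, with p-values adjusted over all genes of each medium. In full phosphate 4 of the 10 genes were lower with trans- than with cis-zeatin and none was higher, against 20.5% of all genes called lower and 20.7% higher, together 41.2%. FAR5 differed by -0.59 ± 0.13 (adjusted p = 0.000978), GPAT5 by -0.44 ± 0.16 (adjusted p = 0.0326), FAR4 by -0.41 ± 0.12 (adjusted p = 0.0114) and CYP86A1 by -0.39 ± 0.12 (adjusted p = 0.0147). ABCG6, CYP86B1, FAR1 and ASFT were lower in all 3 trans-zeatin libraries than in any cis-zeatin library, with differences from -0.36 to -0.28 that missed the threshold. For KCS2 the difference was -0.20 with a 95% interval from -0.55 to 0.15, and for MYB41 0.01 with an interval from -0.42 to 0.44. A fit of the compared groups alone called 9 genes lower, and leaving out trans-zeatin replicate 3 left 2. The 20.5% belongs to the main fit, in which 8232 of all genes were called in either direction. Over the 8 alternatives other than leaving out a single library, that fit of the compared groups included, the number was 7990 to 9881. It was 6687 to 9105 when 1 library was left out. The shares called lower in the fits that gave 9 and 2 are not given, so those counts stand without a share beside them.

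In low phosphate no gene passed the test between the isomers by edgeR's quasi-likelihood test, and none did at an unadjusted p under 0.05 or by DESeq2. Of all genes, 2.77% were called in that comparison, 1.35% higher and 1.42% lower. The difference of trans- minus cis-zeatin was 0.01 for CYP86A1 (95% interval from -0.24 to 0.27), 0.10 for FAR5 (from -0.16 to 0.37), 0.15 for GPAT5 (from -0.18 to 0.48) and -0.13 for FAR4 (from -0.39 to 0.13). Over the 10 genes the intervals ran from -0.56, for KCS2, to 0.51, for MYB41. Without trans-zeatin replicate 1, which left both groups within 1 range of dropped reads, the count was again 0 and the difference of CYP86A1 was -0.16.

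Both zeatins were also compared with untreated roots in low phosphate; these comparisons share their untreated libraries. Trans-zeatin raised 4 of the 10 genes and lowered none, against 13.8% of all genes called higher and 18.4% lower, together 32.2%. CYP86A1 rose by 0.72 ± 0.12 (adjusted p = 8.56e-05), CYP86B1 and FAR5 by 0.54 each (SE 0.15 and 0.13; adjusted p = 0.00689 and 0.0022) and GPAT5 by 0.50 ± 0.16 (adjusted p = 0.0201). CYP86A1 was the only one of them whose groups did not overlap. FAR1 was lower in all 3 trans-zeatin libraries than in any untreated one and missed the threshold (-0.30 ± 0.14, adjusted p = 0.124). Same-numbered replicates of both groups deviated together. A fit of both groups alone, with the replicate number as a block, was chosen after seeing the data. That fit called 7 higher and 2 lower: FAR4, KCS2 and ABCG6 were added, FAR1 fell by 0.27 (adjusted p = 0.0117) and MYB41 fell by 0.35 (adjusted p = 0.0101). The replicate block over all libraries changed the call of none of the 10 genes here. Over the 10 alternatives other than leaving out a single library, both blocks included, 4140 to 7549 of all genes were called. The main fit called 6440, and the share in the fit of both groups alone is not given. With the range of dropped reads as a term instead, MYB41 stood at 0.01, CYP86B1 and GPAT5 at 0.90 each and ABCG6 at 0.67. These values set trans-zeatin replicate 1 alone against the untreated libraries, since the term takes up replicates 2 and 3. Replicate 1 lay above its group mean for 9 of the 10 genes. The count was 7 without trans-zeatin replicate 2 and 2 without trans-zeatin replicate 1.

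Cis-zeatin in low phosphate raised 4 of the 10 genes and lowered none, against 13.1% of all genes called higher and 18.1% lower, together 31.2%. CYP86A1 rose by 0.70 ± 0.12 (adjusted p = 0.000121), CYP86B1 by 0.63 ± 0.15 (adjusted p = 0.00241), KCS2 by 0.48 ± 0.17 (adjusted p = 0.0366) and FAR5 by 0.44 ± 0.13 (adjusted p = 0.0117). For KCS2 the groups overlapped, and without cis-zeatin replicate 2 its difference was 0.26 (adjusted p = 0.274). The other 3 genes lay above the untreated libraries without overlap. MYB41 (-0.44 ± 0.21) and FAR1 (-0.26 ± 0.14) had estimates below 0 and did not pass. At an unadjusted p under 0.05 MYB41 was the only gene of the 10 that was lower in any of the 5 comparisons with untreated roots, and DESeq2 called none lower there. The count was 2 without untreated low-phosphate replicate 2 or 3, and 7 in a fit with the range of dropped reads as a term, which rests on trans-zeatin replicate 1 as the link between ranges. In that fit CYP86A1 stood at 1.17, CYP86B1 at 1.195, GPAT5 at 1.002, KCS2 at 0.99 and FAR5 at 0.82, and MYB41 changed sign to 0.16 with no call.

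The difference between responses in low and full phosphate was tested as an interaction. For trans-zeatin no gene passed by edgeR, at an unadjusted p under 0.05 or by DESeq2, while 9.28% of all genes were called higher and 11.2% lower, together 20.4%. The estimates ran from -0.39 ± 0.21 for FAR1 to 0.36 ± 0.23 for GPAT5, and 2 genes were called higher without low-phosphate trans-zeatin replicate 2. With the range of dropped reads as a term, the estimate was 0.63 for CYP86A1 and 0.76 for GPAT5. In that fit the low-phosphate trans-zeatin response rests on replicate 1 alone. For cis-zeatin all 10 estimates were below 0, with a median of -0.32 against -0.01 over all genes. FAR5 passed with -0.71 ± 0.18 (adjusted p = 0.026), against 2.64% of all genes called lower and 1.58% higher, together 4.21%. FAR1 (-0.68 ± 0.21, adjusted p = 0.0668) and FAR4 (-0.54 ± 0.18, adjusted p = 0.0922) came next and missed the threshold. FAR1 passed with DESeq2 (-0.70, adjusted p = 0.0358), with no filter (-0.68, adjusted p = 0.0449) and without low-phosphate cis-zeatin replicate 3 (-0.93, adjusted p = 0.0021). For the difference between isomers, FAR5 passed with 0.69 ± 0.18 (adjusted p = 0.0111), against 8.61% of all genes called higher and 9.74% lower, together 18.3%. The call of FAR5 under cis-zeatin was lost without each of 5 libraries in turn, among them untreated low-phosphate replicate 1 (-0.51, adjusted p = 0.0757). The cis-zeatin and isomer interactions were not fitted with the range term. With that term CYP86A1, CYP86B1, GPAT5, KCS2 and ABCG6 responded to cis-zeatin in low phosphate by 1.17, 1.195, 1.002, 0.99 and 0.79. These values lay above their full-phosphate responses of 0.77, 0.74, 0.57, 0.64 and 0.67 in the main fit. For FAR5 (0.82 against 1.15) and FAR4 (0.67 against 0.84) the full-phosphate response was the larger one. Only the low-phosphate values carry the term, so these pairs are no test of the interaction. The size of the term rests on the gap between low-phosphate trans-zeatin replicate 1 and replicates 2 and 3. Their mean deviations over the 10 genes were 0.33, -0.40 and 0.07.

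The 10 genes varied together across the 18 libraries to different degrees. Pearson's r of a gene with the mean profile of the other 9, on log2 CPM, was 0.94 for ABCG6, 0.93 for CYP86B1 and GPAT5, 0.91 for FAR5, 0.88 for CYP86A1, 0.86 for FAR4 and 0.82 for KCS2. It was 0.72 for ASFT, 0.41 for FAR1 and 0.13 for MYB41. These are descriptions over libraries that share groups and scatter. The non-member genes with the most similar profile over the 18 libraries were ABCG10 (AT1G53270), HHP1 (AT5G20270), AT2G48140, ABCG23 (AT5G19410), the peroxidase gene AT1G68850 and the AP2-type factor gene AT1G16060, with r from 0.95 to 0.96. AT1G68850, for example, averaged 77.2 ± 2.61 CPM in untreated full-phosphate roots, 144 ± 9.29 CPM with cis-zeatin and 121 ± 27.4 CPM in untreated low-phosphate roots (SD, n = 3).

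Other suberin genes were counted from lists chosen by role, and each count is set beside the share of all genes called in the same direction. Of 13 further enzymes and transporters, 9 rose under starvation (22.9% of all genes), with a median of 0.42. FACT, a caffeoyl transferase acting on fatty alcohols, rose by 0.48 ± 0.09 (adjusted p = 0.000274) and the acyl-CoA synthetase gene LACS2 by 0.57 ± 0.14 (adjusted p = 0.00188). Under cis-zeatin in full phosphate 6 of the 13 rose (12.7% of all genes), led by LACS2 (0.85 ± 0.14, adjusted p = 4.81e-05) and the transporter gene ABCG20 (0.87 ± 0.15, adjusted p = 0.000105). Under trans-zeatin in full phosphate 3 rose and 2 fell, no more than the shares over all genes (24.2% and 25.3%), the latter being the transporter genes ABCG11 (-0.82 ± 0.16, adjusted p = 0.0003) and ABCG1 (-0.51 ± 0.14, adjusted p = 0.00399). In low phosphate 3 rose and 1 fell with trans-zeatin (13.8% and 18.4% of all genes), and 1 rose and 2 fell with cis-zeatin (13.1% and 18.1%). Between the isomers in full phosphate 6 of the 13 were lower with trans-zeatin (20.5% of all genes).

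Of 8 further suberin regulators 3 rose and 2 fell under starvation, near the shares of 22.9% and 21.8% over all genes, with MYB107 up by 0.70 ± 0.19 (adjusted p = 0.00506) and MYB39 at -0.67 ± 0.19 (adjusted p = 0.00643). ANAC058 rose with both zeatins in both media, by 0.65 ± 0.13 with trans-zeatin and 0.91 ± 0.13 with cis-zeatin in full phosphate and by 0.91 ± 0.13 and 0.84 ± 0.13 in low phosphate (adjusted p = 0.000239, 1.01e-05, 6.55e-06 and 2.27e-05). MYB92 rose by 0.36 with trans-zeatin in each medium (SE 0.08; adjusted p = 0.00116 in full and 0.00185 in low phosphate). ANAC046 went the other way with trans-zeatin in low phosphate (-0.58 ± 0.11, adjusted p = 0.00041). Of the 12 phenylpropanoid genes, which supply ferulate, 9 rose and 1 fell under starvation (22.9% and 21.8% of all genes), and 8 were lower with trans- than with cis-zeatin in full phosphate (20.5%).

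**Figure D3:**
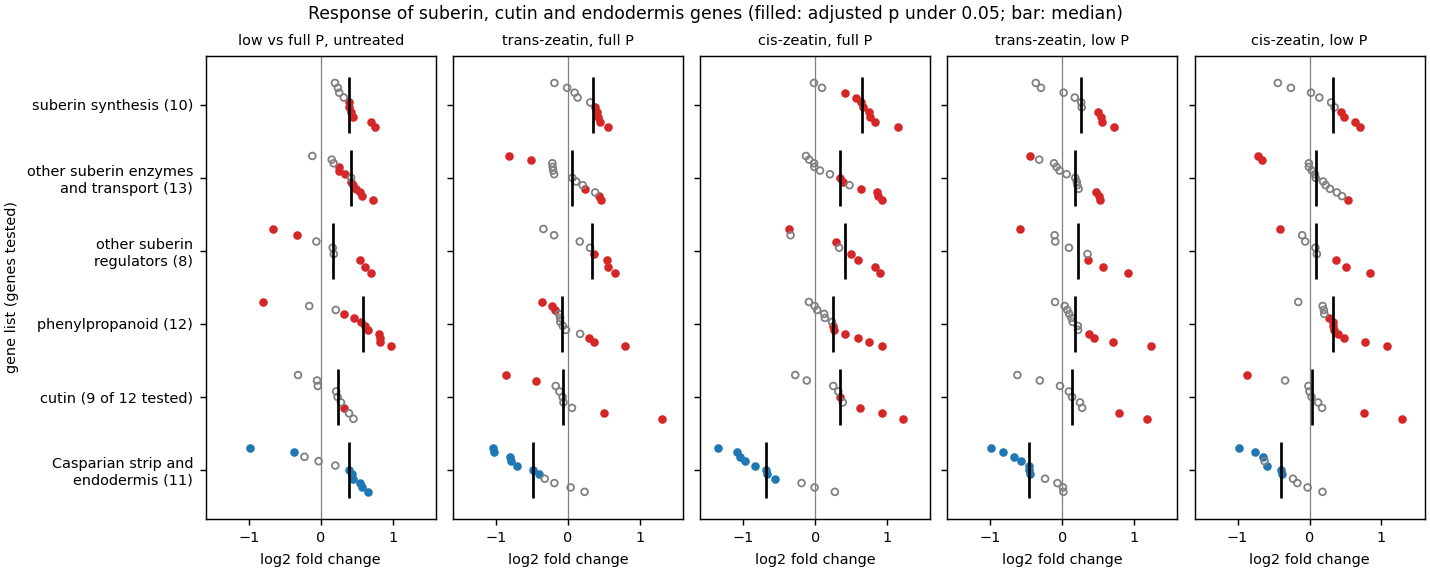
Log2 fold changes of 6 gene lists in 5 comparisons; each point is a gene, filled where the adjusted p was under 0.05, blue for Casparian strip and endodermis genes and red for the other lists, and the bar is the list's median. With zeatin the medians of the suberin list lie at 0.27 to 0.65 and those of the Casparian strip and endodermis list at -0.68 to -0.40.

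Casparian strip genes, which mark the same endodermal cells at an earlier stage, went the other way under zeatin. Of 11 such genes 7 fell with trans-zeatin and 8 with cis-zeatin in full phosphate (25.3% and 13.5% of all genes), and 7 and 6 in low phosphate (18.4% and 18.1%). CASP1 stood at 212 ± 5.89 CPM in untreated full-phosphate roots, 103 ± 9.18 CPM with trans-zeatin and 99.7 ± 5.98 CPM with cis-zeatin (SD, n = 3). Under starvation 6 of the 11 rose and 2 fell (22.9% and 21.8% of all genes), with CASP4 up by 0.66 ± 0.13 (adjusted p = 0.000315) and CASP5 at -0.98 ± 0.15 (adjusted p = 2.7e-05). The summed level of the 11 was 879 to 940 CPM in untreated full-phosphate roots, 534 to 633 with trans-zeatin and 524 to 611 with cis-zeatin. In low phosphate it was 1004 to 1218, 592 to 947 and 765 to 867 CPM, in the same order. The summed level of the 10 suberin genes was 1019 to 1059, 1186 to 1266 and 1508 to 1648 CPM in full and 1173 to 1609, 1319 to 2213 and 1646 to 1901 CPM in low phosphate.

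**Figure D4:**
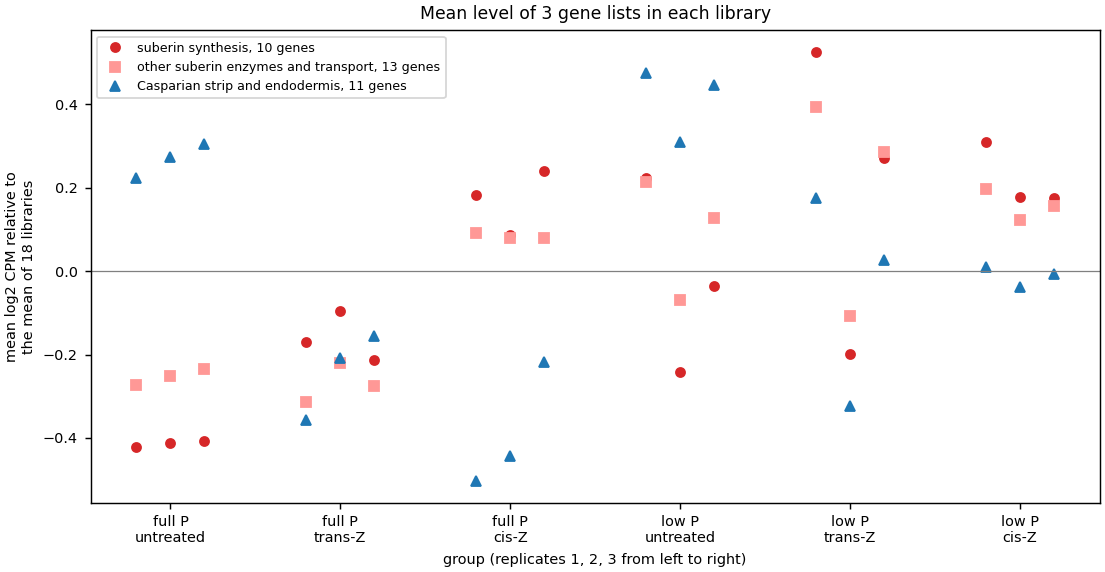
Mean log2 CPM of 3 gene lists in each library, relative to the mean of all 18 libraries; the 3 replicates of a group stand side by side. The 10 suberin genes lie lowest in untreated full-phosphate roots, where the Casparian strip and endodermis list is above its mean, and in low-phosphate trans-zeatin replicate 2 all 3 lists lie below those of its replicates.

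Cutin genes make the related polyester of the shoot epidermis. Of 9 tested of 12, 1 rose under starvation (22.9% of all genes). In full phosphate 2 rose and 2 fell with trans-zeatin, near the shares of 24.2% and 25.3% over all genes, and 4 rose with cis-zeatin (12.7%). In low phosphate 2 rose with trans-zeatin (13.8%), and 2 rose and 1 fell with cis-zeatin (13.1% and 18.1%). Between the isomers in full phosphate 4 of the 9 were lower with trans-zeatin (20.5%). DCR, an acyltransferase of cutin synthesis, rose by 1.31 ± 0.15 with trans-zeatin and 1.22 ± 0.15 with cis-zeatin in full phosphate (adjusted p = 3.12e-07 and 1.73e-06). Markers of other tissues moved with some groups, and their part in the results on suberin genes was not tested. The 5 xylem markers summed to 502 to 565 CPM in untreated full-phosphate roots and 643 to 737 CPM with cis-zeatin. The 4 epidermis and root hair markers summed to 109 to 121 CPM in untreated full-phosphate and 320 to 392 CPM in untreated low-phosphate roots. The 7 photosynthesis genes summed to 38.1 to 63.3 CPM in untreated full-phosphate roots, 120 to 152 CPM with trans-zeatin and 13.4 to 19.7 CPM in untreated low-phosphate roots, with up to 2 of the 7 at 0.

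Of 11 tested abscisic acid response genes 8 rose and 1 fell with trans-zeatin (24.2% and 25.3% of all genes) and 5 rose with cis-zeatin (12.7%) in full phosphate, with the phosphatase gene HAI1 up by 1.56 ± 0.20 and 1.37 ± 0.20 (adjusted p = 1.46e-06 and 1.65e-05). In low phosphate 1 fell with trans-zeatin (18.4% of all genes), and 2 rose and 1 fell with cis-zeatin (13.1% and 18.1%), the one that fell being RD29A, which changed by -1.22 ± 0.15 and -1.10 ± 0.15 (adjusted p = 1.76e-06 and 7.43e-06). Under starvation 2 rose and 4 fell (22.9% and 21.8% of all genes). Of 8 ethylene response genes 4 rose with trans-zeatin and 2 with cis-zeatin in full phosphate (24.2% and 12.7% of all genes), and 5 and 4 in low phosphate (13.8% and 13.1%), with 1 lower in each case. Under starvation 1 of the 8 rose and 4 fell (22.9% and 21.8%). ARGOS rose by 1.92 to 2.58 in these 4 comparisons (SE 0.12 to 0.13).

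Identity of reads limits few of these values. Of all windows of 50 exonic bases, 17 of 2481 of FAR5 and 4 of 1946 of KCS2 were found elsewhere in the genome, and none of the other 8 genes. The labels do not state the strand setting of the counting, and 4 of the 10 genes overlap a gene on the opposite strand in the annotation. For FAR1, FAR4 and ASFT the overlapping entries held 0 to 65 reads in a library, against 266 or more for the gene itself. These counts do not show whether reads in the shared stretches, 1310 bases for FAR1, were left out of both entries. KCS2 overlaps AT1G04210, which held 955 to 1635 reads against 539 to 1245 for KCS2, so reads in the shared stretch cannot be told apart.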

How the data were processed

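Per the labels' protocols, poly(A) libraries were made from RNA extracted with Trizol and RNeasy columns. CASAVA 1.4, FastQC, HISAT2, HTSeq and edgeR are named in the submitters' processing notes, and no build is given in the sources used here. The deposited table holds counts per gene for 18 libraries; its name speaks of normalization, but the values are whole numbers whose totals differ between libraries, and they were analysed as raw counts. A deposited quality report gave reads per library (the authors' values).

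Genes were kept by filterByExpr (minimum count 10), scaled by TMM (factors 0.953 to 1.06) and tested by edgeR 4.0.16 under R 4.3.3 (quasi-likelihood F-test, glmQLFTest), all 18 libraries in a single model with a mean per group. P-values were adjusted by the Benjamini-Hochberg method over the 19982 genes tested, with 0.05 as the threshold. CPM is edgeR's, with TMM. An interaction is the low-phosphate response minus the full-phosphate one. The code was tested on simulated data. Replicates differed by more than sampling noise (chi-square per degree of freedom 2.79 to 31.8), so none was a duplicate.

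Members and lists were chosen with earlier results of these data known. All 10 members are named in every comparison, up to 3 genes of each other list by smallest adjusted p, and 6 non-member genes by likeness of profile. Replicate numbers were checked for pairing by correlating deviations from group means; every r was over 0.1 only between low-phosphate roots without zeatin and those with trans-zeatin (0.27, 0.30 and 0.17). All 102 listed genes matched the RefSeq gene table by locus identifier. Promoters and exon lengths come from RefSeq (TAIR10.1).

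Alternatives were DESeq2 1.42.0, median-of-ratios scaling, no filter, a stricter minimum count of 50, robust fitting, the compared groups alone, a replicate block, the range of dropped reads as a term and leaving out each library. Chosen after seeing the data were a fit without both low-phosphate zeatin libraries numbered 2 and a block over the paired groups alone.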

Additional observations from a re-analysis of the deposited data

Results flagged for a closer look

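The response of FAR5, a fatty acyl reductase gene, differed between media by a test of the difference itself, in the fit of all libraries with edgeR. FAR1 missed the threshold there and passed with DESeq2 (-0.70, adjusted p = 0.0358) and with no filter (-0.68, adjusted p = 0.0449) in the interaction of cis-zeatin with phosphate. The response of FAR5 to cis-zeatin was 1.15 ± 0.13 in full and 0.44 ± 0.13 in low phosphate on the log2 scale (SE). The difference was -0.71 ± 0.18 (adjusted p = 0.026, edgeR's quasi-likelihood test). The level of FAR5 under cis-zeatin was 221 ± 6.95 CPM in full and 227 ± 11.5 CPM in low phosphate, while untreated roots held 99.4 ± 5.91 CPM in full and 167 ± 39.1 CPM in low phosphate (SD, n = 3).

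The difference between trans- and cis-zeatin for FAR5 was -0.59 ± 0.13 in full and 0.10 ± 0.13 in low phosphate, and these differed by 0.69 ± 0.18 (adjusted p = 0.0111, edgeR). The range of that interaction over the alternatives was 0.55 to 0.82, and its adjusted p stayed at 0.0297 or below. None of these alternatives separates isomer from the range of dropped reads. In full phosphate the trans-zeatin libraries all lie in another range than the cis-zeatin ones. For cis-zeatin the range was -0.84 to -0.51 and the highest adjusted p was 0.0776, with the call lost without each of 5 libraries in turn. In both media the cis-zeatin libraries lie in another range of dropped reads than the untreated ones, so range and treatment cannot be told apart on either side of the cis-zeatin difference. With range as a term, which rests on low-phosphate trans-zeatin replicate 1, the FAR5 response to cis-zeatin in low phosphate was 0.82 in place of 0.44. Neither this interaction nor that of the isomers was fitted with that term. The term marks only the range of 40794 to 58614, which holds no full-phosphate library, so it leaves the full-phosphate response unadjusted.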

How the results depend on the processing

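Over 28 settings the members' values gave 2650 alternatives, of which 2455 kept direction and side of the threshold, 45 lost a call, 75 gained one, 75 changed sign with no call in either setting and none reversed a call. The cause of the changes below was not tested. Leaving out 1 library at a time gave 3 to 6 members higher under starvation, 3 to 6 with trans-zeatin in full phosphate, 2 to 7 higher and 0 to 1 lower with trans-zeatin in low phosphate, and 2 to 6 higher and 0 to 1 lower with cis-zeatin in low phosphate. It gave 2 to 6 lower for trans- against cis-zeatin in full phosphate and 293 to 847 genes called in low phosphate (553 with every library). For the interactions it gave 0 to 2 higher with trans-zeatin, 0 to 2 lower with cis-zeatin and 1 to 5 higher for the isomers. Of all genes, in either direction, it called 7511 to 9857 under starvation and 8507 to 10718 with trans-zeatin in full phosphate. In low phosphate it called 5336 to 7235 with trans-zeatin and 5226 to 6673 with cis-zeatin. It called 6687 to 9105 for the isomers in full phosphate. The interactions had 3059 to 5011 with trans-zeatin, 572 to 1064 with cis-zeatin and 2652 to 3972 for the isomers. With the range of dropped reads as a term, 4140 genes were called for trans-zeatin and 2678 for cis-zeatin in low phosphate (6440 and 6233 without it), 7 members were higher with cis-zeatin there, and the trans-zeatin interaction had 1767 genes (4085 without it) and 2 members higher. With the compared groups alone 1 member was lower with trans-zeatin in full phosphate, 9 were lower for trans- against cis-zeatin in full phosphate and 79 genes were called in low phosphate. DESeq2 called 926 genes for the isomers in low phosphate, and DESeq2 and no filter each gave 2 members lower in the cis-zeatin interaction. Without both low-phosphate zeatin libraries numbered 2, 7 members were higher with trans-zeatin in low phosphate and 7 were lower for trans- against cis-zeatin in full phosphate. The interactions had 2 higher with trans-zeatin, 2 lower with cis-zeatin and 4 higher for the isomers. Of all genes 325 were called for the isomers in low phosphate. In the other comparisons of that fit the number called stayed within 1.5 times that of the main fit, and shares by direction are not given. The replicate block over the paired low-phosphate groups gave 7 members higher and 2 lower with trans-zeatin; the block over all libraries gave 6 higher under starvation and changed no count of members or genes by more than 1.5 times. A pseudocount was not varied because the values are counts. Median-of-ratios scaling moved the median of all genes by at most 0.02. With 3 libraries a group, the standard errors of the members' log2 differences between groups were 0.12 to 0.21, which limits the changes that could be detected.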
